A study of Mus musculus with 2 samples.

Results

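Tetraspanins and related membrane proteins were followed as a family of 34 genes, chosen from the 34295 genes of the expression table by name. The naming rule took the numbered Tspan genes, Cd9, Cd37, Cd53, Cd63, Cd81, Cd82 and Cd151, the uroplakin genes Upk1a and Upk1b, and the numbered Tm4sf genes. It uses no expression value but was set with earlier results of these data known. Transcript levels were measured by poly(A) RNA sequencing in 1 library of embryonic fibroblasts (WT_MEF) and 1 library of bone marrow derived macrophages (WT_BMDM), both from wild type C57BL/6J mice. Fibroblasts were grown out of E13.5-E14.4 embryos after the head and the red tissue, fetal liver included, had been taken away. They were sorted to remove cells positive for CD45, CD11b or F4/80, grown in DMEM with 10% serum and used between passages 4 and 7, with 100000 cells for the library. Macrophages were differentiated from the marrow of femurs and tibias in RPMI with 10% serum and 30% conditioned medium of L929 cells, a mouse fibroblast line, and on day 6 were replated at 750000 cells overnight before lysis. The labels do not say how many embryos or marrow donors were pooled, nor the age of the donors. The series was made to survey growth factors and their receptors, and the tetraspanin genes lie outside that aim.

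Tetraspanins are small proteins that cross the membrane several times, with a short and a long loop outside the cell. They bind each other and a set of partners, among them integrins, immunoglobulin superfamily proteins and the protease ADAM10, and so gather them into membrane patches that govern adhesion, fusion, shedding of surface proteins and the loading of exosomes. Some are found in nearly every cell, others mainly in leukocytes or in epithelia. The Tm4sf genes encode the L6 family, which has a similar layout in the membrane but is a separate protein family.

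Values are in transcripts per 1000000 (TPM), a unit corrected for transcript length, so that levels of different genes can be compared within a library. With 1 library per cell type there is no replicate error and no test. Every difference described is one between these libraries, in which cell type, medium, cell number and preparation cannot be told apart. The depth behind the TPM is unknown, so values carry no interval. A gene counts as detected where at least 1 of the libraries gave it 1 TPM or more. It is called higher in the library with the larger value where the TPM + 1 differed by 4-fold or more, a log2 ratio of 2 or more in size, and the larger value was at least 5 TPM. Log2 ratios are of TPM + 1 in WT_MEF over WT_BMDM, which understates the difference of low genes, and folds are ratios of the TPM themselves.

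Marker genes went with the labels. Sparc stood at 3888 TPM in WT_MEF and 6.15 TPM in WT_BMDM, and Lyz2 at 19.4 TPM in WT_MEF and 12375 TPM in WT_BMDM. All 14 fibroblast markers were called higher in WT_MEF, with a summed level of 15415 TPM in WT_MEF and 32.0 TPM in WT_BMDM. All 17 macrophage markers were called higher in WT_BMDM, with a summed level of 50.5 TPM in WT_MEF and 35462 TPM in WT_BMDM. Markers of a few other cell types were also present: 5 of 9 neutrophil genes were called higher in WT_BMDM (S100a9 was listed at 0 in WT_MEF and stood at 268 TPM in WT_BMDM), though the defining gene Ly6g was listed at 0 in both libraries. Of 5 T cell genes 1 was called, Cd5, listed at 0 in WT_MEF and at 5.46 TPM in WT_BMDM, while Cd3g was listed at 0 in both. Of 4 cartilage genes 1 was called, Col2a1, at 6.11 TPM in WT_MEF and listed at 0 in WT_BMDM. No gene of the endothelial, epithelial, erythroid, melanocyte or glial lists was called. In bulk libraries such as these, fewer cells of a type and less RNA per cell cannot be told apart.

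The family made up a similar part of both libraries. Cd63, Cd81 and Cd9 were abundant in each, while 11 other members were called higher in one library. Its summed level was 4153 TPM in WT_MEF and 3624 TPM in WT_BMDM, or 0.416% and 0.363% of each library's total. Of the 34 genes, 26 were detected, and 20 reached 5 TPM in WT_MEF or WT_BMDM. Among these 20, 6 were called higher in WT_MEF, namely Tm4sf1, Tspan9, Tspan5, Tspan6, Tspan7 and Tspan2, and 5 were called higher in WT_BMDM, namely Cd53, Cd37, Tspan14, Tspan32 and Tspan13. Over all 11191 genes that reached this level, 23.1% were called, 14.3% toward WT_MEF and 8.77% toward WT_BMDM; among the 10788 protein-coding ones the shares were 23.0%, 14.3% and 8.66%. The members' shares were 30.0% toward WT_MEF and 25.0% toward WT_BMDM. Several of the 20 passed the 5 TPM minimum only through the library in which they were high, so nothing is read from these shares. Of the 11 members at 5 TPM or more in both libraries, 2 were called, Tspan5 and Tspan14, against 5.74% of the 8363 such genes. The median log2 ratio was 1.07 over the 26 detected members and 0.28 over the 13606 detected genes. Several low members were detected only through WT_MEF, so nothing is read from this median. Over genes at 5 TPM or more in either library it was 0.49 for members and 0.26 for all genes. For the 11 members at 5 TPM in both libraries, the median log2 ratio of the TPM themselves was 0.38, against 0.18 for the 8363 such genes.

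**Figure D1:**
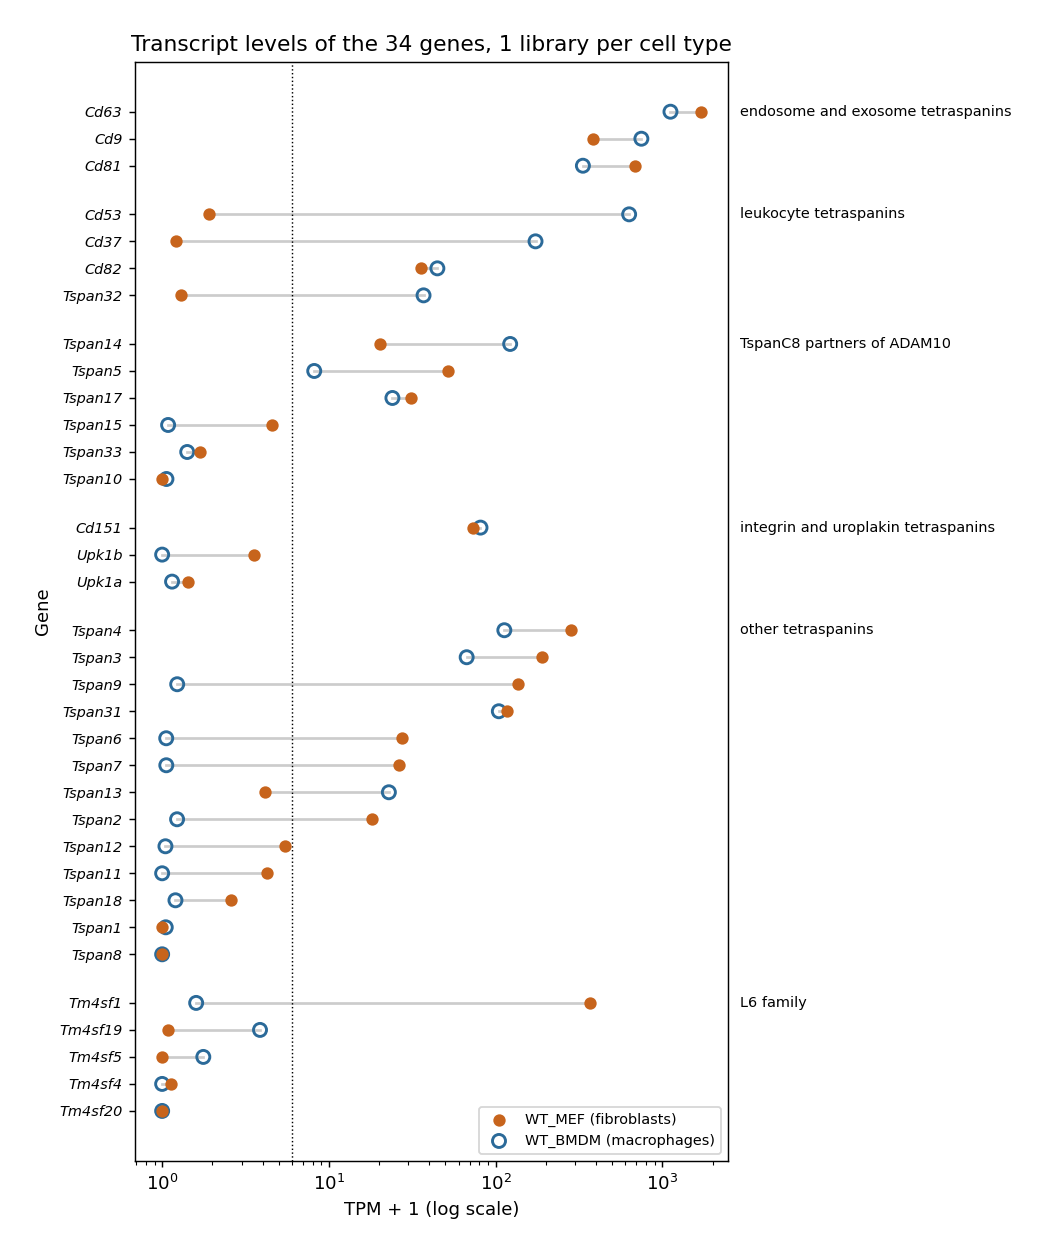
Level of each of the 34 genes in WT_MEF (filled orange) and WT_BMDM (open blue), 1 library each, as TPM + 1 on a log axis, with genes ordered by role and a dotted line at a level of 5 TPM. Cd63 lies highest in both libraries, while Cd53, Cd37, Tm4sf1, Tspan9, Tspan6 and Tspan7 have their points far apart.

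The 3 tetraspanins of endosomes and exosomes were high in both libraries and were among the 4 highest members in each. Cd63, which encodes a protein of late endosomes and lysosomes and is widely used as an exosome marker, stood at 1707 TPM in WT_MEF and 1118 TPM in WT_BMDM. It was the highest member in each, at rank 78 of all genes in WT_MEF and rank 136 in WT_BMDM. Cd81, whose product sits on most cells and is a common exosome marker, stood at 681 TPM in WT_MEF and 333 TPM in WT_BMDM. Cd9, best known for sperm and egg fusion and abundant on platelets, stood at 381 TPM in WT_MEF and 748 TPM in WT_BMDM. Cd81 and Cd9 thus differed by about the same factor in opposite directions, 2.04-fold and 1.96-fold, neither of which was called. The near-equal size depends on the scaling. Their log2 ratios were 1.03 and -0.97, and 0.78 and -1.22 when the libraries were scaled by median of ratios. The ratio of Cd9 to Cd81 was 0.559 in WT_MEF and 2.25 in WT_BMDM, and their summed level was 1061 TPM in WT_MEF and 1081 TPM in WT_BMDM, a comparison chosen after the values were seen. In the annotation used here, 13.4% of the 31-base words of Cd63 transcripts also occur in the pseudogene Cd63-ps, so part of its reads cannot be placed on the gene alone. For Cd9 the share that also occurs in other genes is 20.1%, of which the largest part, 9.35% of its words, lies in Gm26728, and Tspan15, Tspan33 and Tspan7 hold some as well.

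The leukocyte tetraspanins gave the widest split of the family. Cd53, expressed on most leukocytes, stood at 0.909 TPM in WT_MEF and 631 TPM in WT_BMDM, a log2 ratio of -8.37 and a 695-fold difference. Cd37 stood at 0.212 TPM in WT_MEF and 173 TPM in WT_BMDM, a log2 ratio of -7.16 and an 814-fold difference. Its product stabilises the fungal receptor dectin-1 in macrophages and is prominent on B cells. The folds of Cd53 and Cd37 both rest on WT_MEF values below 1 TPM, so their order is uncertain. Tspan32, a tetraspanin of blood cells, stood at 0.293 TPM in WT_MEF and 36.0 TPM in WT_BMDM, a log2 ratio of -4.84. Of the group's summed level of 884 TPM in WT_BMDM, Cd53 held 71.5% and Cd37 held 19.5%. Cd82, which is widely expressed and known as a suppressor of metastasis, differed little, at 34.7 TPM in WT_MEF and 43.8 TPM in WT_BMDM, and made up 96.1% of the group's 36.1 TPM in WT_MEF. The genes of the proteins used for the fibroblast sort were low in WT_MEF as well: Ptprc, for CD45, stood at 0.352 TPM in WT_MEF and 142 TPM in WT_BMDM.

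The levels of Cd53, Cd37 and Tspan32 in WT_MEF were 0.144%, 0.123% and 0.815% of those in WT_BMDM. For the 17 macrophage markers this share ran between 0% and 20.8%, with a median of 0.114%. The neutrophil markers moved in the same direction, at a summed 1.93 TPM in WT_MEF and 498 TPM in WT_BMDM, and their part in the difference was not tested. The B cell gene Cd79b was listed at 0 in WT_MEF and stood at 3.66 TPM in WT_BMDM, below the minimum for a call, and its part was likewise not tested.

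The promoters of these genes are shown because the 3 leukocyte tetraspanins were high in the same library; that of Tm4sf1, the highest gene called toward WT_MEF, and that of Cd81, the immediate neighbour of Tspan32 and high in both libraries, stand beside them. Each run starts 250 bases before the RefSeq start site and ends 30 bases into the transcript (build GRCm38.p6, 5′ to 3′ on the gene's strand). Capitals mark GAGGAA, a motif that holds the GGAA core read by PU.1 and other ETS factors, or its reverse complement TTCCTC. The regions are, in the order shown, chr3:106790120-106790399 (minus strand), chr7:45238810-45239089 (minus), chr7:143004796-143005075 (plus), chr3:57301959-57302238 (minus) and chr7:143052500-143052779 (plus).
Cd53: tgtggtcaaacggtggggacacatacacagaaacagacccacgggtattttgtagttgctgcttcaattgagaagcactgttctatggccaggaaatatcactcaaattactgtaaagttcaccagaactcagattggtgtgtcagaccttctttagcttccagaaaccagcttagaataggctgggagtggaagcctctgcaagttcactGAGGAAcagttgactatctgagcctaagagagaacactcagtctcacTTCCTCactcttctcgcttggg
Cd37: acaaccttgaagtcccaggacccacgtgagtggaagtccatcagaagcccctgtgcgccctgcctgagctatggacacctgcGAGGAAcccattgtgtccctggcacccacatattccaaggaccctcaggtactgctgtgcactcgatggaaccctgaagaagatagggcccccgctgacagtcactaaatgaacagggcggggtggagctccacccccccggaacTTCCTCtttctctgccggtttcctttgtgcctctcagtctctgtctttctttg
Tspan32: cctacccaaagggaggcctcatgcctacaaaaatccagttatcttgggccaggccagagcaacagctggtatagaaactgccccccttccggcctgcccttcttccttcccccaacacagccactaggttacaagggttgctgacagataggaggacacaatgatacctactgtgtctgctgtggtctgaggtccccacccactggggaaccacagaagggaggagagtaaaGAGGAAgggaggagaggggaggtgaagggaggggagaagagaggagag
Tm4sf1: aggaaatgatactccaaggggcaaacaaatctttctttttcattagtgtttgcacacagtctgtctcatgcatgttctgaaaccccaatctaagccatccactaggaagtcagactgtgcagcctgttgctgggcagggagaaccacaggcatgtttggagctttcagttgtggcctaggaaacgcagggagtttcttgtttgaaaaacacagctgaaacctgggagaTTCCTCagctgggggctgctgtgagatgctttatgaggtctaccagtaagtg
Cd81: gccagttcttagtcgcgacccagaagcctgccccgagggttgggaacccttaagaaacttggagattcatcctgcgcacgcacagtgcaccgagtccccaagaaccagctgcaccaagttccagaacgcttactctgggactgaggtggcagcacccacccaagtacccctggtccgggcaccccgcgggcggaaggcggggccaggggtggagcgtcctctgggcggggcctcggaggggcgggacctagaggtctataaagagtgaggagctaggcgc

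The motif lay 39 bases before the start in Cd53, with a second match 8 bases after it, at 168 and 23 bases before the start in Cd37 and at 18 bases before it in Tspan32. Tm4sf1 held it 22 bases before the start, and Cd81 did not hold these letters in the window. Among members with a promoter in the RefSeq table (31 of 34 genes, 41 start sites), GAGGAA occurred on either strand within 250 bases before to 50 bases after a start site in 4 of the 5 genes called toward WT_BMDM, Tspan13 being the exception. It occurred in 3 of the 6 called toward WT_MEF, which were Tm4sf1, Tspan6 and Tspan9. Among the 9 uncalled members at 5 TPM or more in either library, 3 held it as well, namely Cd63, Cd82 and Tspan31. Over the 31 members with a promoter the count was 11, or 35.5%. Of all 27025 genes with a promoter 31.3% held it, of the 714 called toward WT_BMDM 47.3%, and of the 1162 called toward WT_MEF 32.3%; over all 32851 promoters the share was 28.3%. TGANTCA, an AP-1-type motif, was found in none of the 11 called members, against 8.97% of all genes. CCGGAAG, an ETS-type motif whose GGAA cannot be that of a GAGGAA match, was found in Tspan32 alone among the called members, against 9.93% of all genes. The share of members called toward WT_BMDM rests on 5 genes, and a match is a run of letters and not a measured binding site.

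The tetraspanins that escort ADAM10, known as TspanC8, were present in both libraries with a different leading member. ADAM10 is a membrane protease that cuts Notch, cadherins and many other surface proteins, and each TspanC8 helps it leave the endoplasmic reticulum and steers its choice of substrate. Tspan5 stood at 50.9 TPM in WT_MEF and 7.17 TPM in WT_BMDM, a log2 ratio of 2.67, and was called higher in WT_MEF. Tspan14 stood at 19.2 TPM in WT_MEF and 121 TPM in WT_BMDM, a log2 ratio of -2.60, and was called higher in WT_BMDM. Both genes were above 5 TPM in each library, and their order was turned round between the libraries. Tspan17 differed little, at 29.9 TPM in WT_MEF and 23.1 TPM in WT_BMDM. Tspan15, linked to the cutting of N-cadherin, stood at 3.53 TPM in WT_MEF and 0.0860 TPM in WT_BMDM, below the minimum for a call.

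Of the summed TspanC8 level, 104 TPM in WT_MEF and 152 TPM in WT_BMDM, Tspan5 held 48.8% in WT_MEF and 4.71% in WT_BMDM, and Tspan14 held 18.4% in WT_MEF and 79.8% in WT_BMDM. The ratio of Tspan5 to Tspan14 was 2.65 in WT_MEF and 0.0591 in WT_BMDM, a comparison chosen after the values were seen. Tspan33, at 0.686 TPM in WT_MEF and 0.414 TPM in WT_BMDM, and Tspan10, listed at 0 in WT_MEF and at 0.0611 TPM in WT_BMDM, were not detected. Adam10 itself was not called, at 70.7 TPM in WT_MEF and 95.1 TPM in WT_BMDM, a log2 ratio of -0.42.

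**Figure D2:**
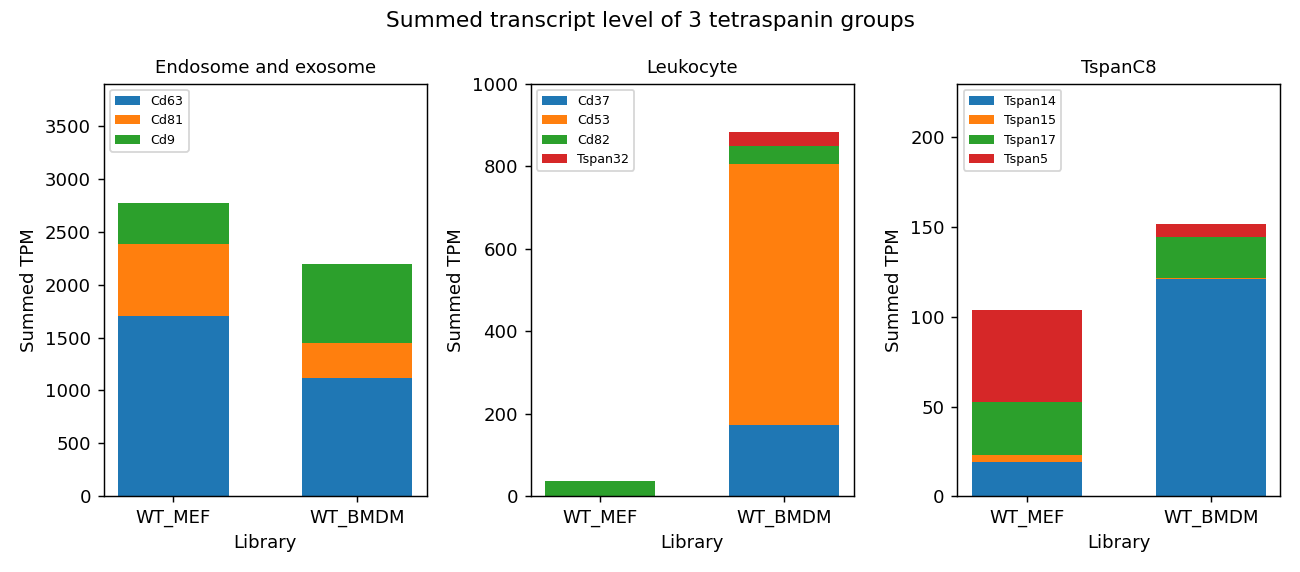
Summed TPM of the detected genes of 3 groups in WT_MEF (left bar) and WT_BMDM (right bar), 1 library each, stacked by gene; each panel has its own scale, starting at 0. The exosome group is of like height in both libraries, the leukocyte group reaches 884 TPM in WT_BMDM against 36.1 TPM in WT_MEF, and the TspanC8 stack is led by Tspan5 in WT_MEF and by Tspan14 in WT_BMDM.

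Cd151, which binds laminin receptors of the integrin family, was nearly level, at 72.2 TPM in WT_MEF and 80.2 TPM in WT_BMDM. The uroplakin genes, whose products coat the bladder surface, were low: Upk1b stood at 2.57 TPM in WT_MEF and was listed at 0 in WT_BMDM, and Upk1a stood at 0.426 TPM in WT_MEF and 0.147 TPM in WT_BMDM.

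Among the remaining tetraspanins, 10 of 11 detected genes had a log2 ratio above 0. Over the whole family 17 of 26 detected members did, or 65.4%, against 61.8% of all detected genes. In the remaining group 4 were called higher in WT_MEF and 1 in WT_BMDM. Its median log2 ratio was 2.09, beside 0.28 over all detected genes. The group is what the other roles leave over, and several of its genes reached 1 TPM only in WT_MEF. Nothing is therefore read from its count or its median. Tspan9, also known from platelets, stood at 135 TPM in WT_MEF and 0.231 TPM in WT_BMDM, a log2 ratio of 6.79. Tspan6, described as a brake on antiviral signalling, stood at 26.6 TPM in WT_MEF and 0.0579 TPM in WT_BMDM, a log2 ratio of 4.71. Tspan7, mutated in a form of X-linked intellectual disability, stood at 25.2 TPM in WT_MEF and 0.0591 TPM in WT_BMDM, a log2 ratio of 4.63. All 3 were well expressed in the fibroblast library and near 0 in the macrophage library. Tspan2, known from oligodendrocytes, followed at 17.2 TPM in WT_MEF and 0.229 TPM in WT_BMDM, a log2 ratio of 3.89. The single gene of this group called toward the macrophages was Tspan13, at 3.15 TPM in WT_MEF and 21.9 TPM in WT_BMDM, a log2 ratio of -2.47, and it was no longer called with a pseudocount of 5, at -1.72.

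For Tspan9, Tspan6, Tspan7 and Tspan2 the level in WT_BMDM was 0.171%, 0.217%, 0.234% and 1.33% of that in WT_MEF. The corresponding share for the 14 fibroblast markers ran between 0.0693% and 0.523%, with a median of 0.162%. The summed levels of platelet, neuron and muscle genes were also higher in WT_MEF. Of 5 platelet genes 1 was called, Ppbp, at 24.9 TPM in WT_MEF and listed at 0 in WT_BMDM, their sums were 34.9 TPM in WT_MEF and 0.449 TPM in WT_BMDM, and Gp9 was listed at 0 in both libraries. Of 5 neuron genes 1 was called, Tubb3, at 20.8 TPM in WT_MEF and 0.163 TPM in WT_BMDM. The neuron sums, mostly Tubb3 in WT_MEF, were 21.7 TPM in WT_MEF and 1.93 TPM in WT_BMDM. Syp went the other way, at 0.145 TPM in WT_MEF and 1.77 TPM in WT_BMDM, and Snap25 and Elavl3 were listed at 0 in both. Of 5 muscle genes 2 were called, Acta1 and Des, their sums were 76.9 TPM in WT_MEF and 0.721 TPM in WT_BMDM, and Myod1, Myog and Myf5 were listed at 0 in both. The part of these other cell types in the tetraspanin levels was not tested.

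A second set of this group was expressed in both cell types at a lower ratio. Tspan4, which forms the retraction-fibre organelles called migrasomes, stood at 281 TPM in WT_MEF and 112 TPM in WT_BMDM, a 2.52-fold difference. Tspan3 stood at 188 TPM in WT_MEF and 66.1 TPM in WT_BMDM, a 2.85-fold difference. Tspan31, which lies tail to tail with the cell cycle kinase gene Cdk4, stood at 116 TPM in WT_MEF and 104 TPM in WT_BMDM. None of them was called. The log2 ratio of Tspan31, 0.16, turned to -0.09 when the libraries were scaled by median of ratios, and 27.6% of its 31-base words also occur in Cdk4, which overlaps it on the opposite strand and stood at 881 TPM in WT_MEF and 316 TPM in WT_BMDM. Likewise 11.9% of the words of Tspan4 occur in the opposite-strand gene Chid1. The library kit keeps strand, and whether the counting used it is not stated in the sources used here.

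The other members of the group stayed below the 5 TPM minimum. Those detected reached 1 TPM only in WT_MEF, so nothing is read from their direction. Tspan12, a co-receptor for norrin signalling in retinal vessels, stood just under the minimum at 4.47 TPM in WT_MEF and 0.0467 TPM in WT_BMDM. Tspan11 stood at 3.26 TPM in WT_MEF and was listed at 0 in WT_BMDM. Tspan18, a regulator of calcium entry in endothelium, stood at 1.58 TPM in WT_MEF and 0.202 TPM in WT_BMDM. Tspan1 and Tspan8, genes of epithelia, were near 0, with Tspan1 listed at 0 in WT_MEF and at 0.0510 TPM in WT_BMDM, and Tspan8 listed at 0 in both.

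The L6 family rested on Tm4sf1. This gene, known from tumours and endothelium, stood at 367 TPM in WT_MEF and 0.600 TPM in WT_BMDM, a log2 ratio of 7.84 and a 611-fold difference, the largest of the family toward WT_MEF. It held 99.9% of the L6 family's 367 TPM in WT_MEF and 14.2% of its 4.23 TPM in WT_BMDM, and its level in WT_BMDM was 0.164% of that in WT_MEF. Of 6 endothelial markers none was called, Cldn5 was listed at 0 in both libraries, and their summed levels were 6.64 TPM in WT_MEF and 8.38 TPM in WT_BMDM. Tm4sf19 was the only other detected member, at 0.0815 TPM in WT_MEF and 2.86 TPM in WT_BMDM, below the minimum for a call. Tm4sf5 was listed at 0 in WT_MEF and at 0.766 TPM in WT_BMDM, Tm4sf4 stood at 0.134 TPM in WT_MEF and was listed at 0 in WT_BMDM, and Tm4sf20 was listed at 0 in both.

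**Figure D3:**
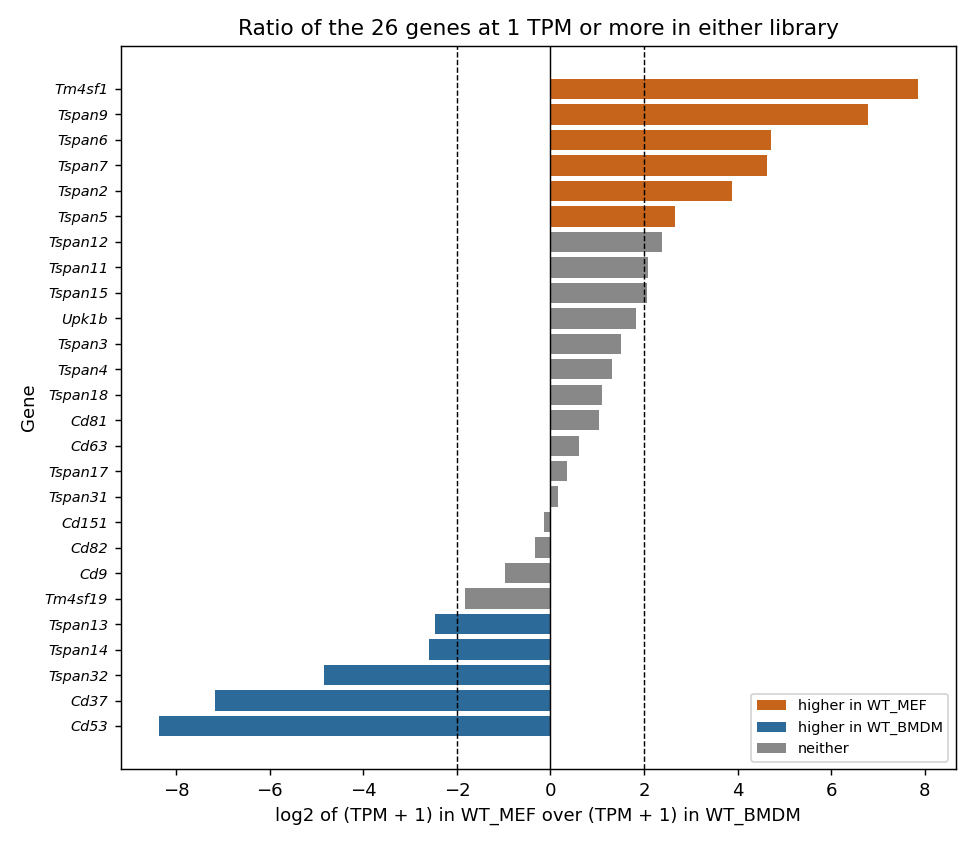
Log2 ratio of TPM + 1 in WT_MEF over WT_BMDM for the 26 detected genes, with bars starting at 0 and dashed lines at -2 and 2. Bars are orange where a gene was called higher in WT_MEF, blue where called higher in WT_BMDM and grey otherwise; they run between -8.37 for Cd53 and 7.84 for Tm4sf1, and the 3 grey bars past 2 belong to genes below 5 TPM.

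Members that lie side by side in the genome were compared in the GENCODE M21 annotation of GRCm38. Of 5 pairs within 200 kb of each other, no pair held 2 called genes. Only 11 of the 34 members were called, beside 23.1% of all genes at 5 TPM or more in either library. With so few pairs, nothing is read from that absence. Tspan32 lies at chr7:143005046-143019644 and Cd81 at chr7:143052739-143067934, both on the plus strand with no coding gene in the 33.1 kb between them; Tspan32 differed 123-fold toward WT_BMDM, and Cd81 differed 2.04-fold toward WT_MEF. Tspan11 and Tspan9, 7.42 kb apart on chromosome 6 in opposite orientation, were both higher in WT_MEF, Tspan11 below the minimum. Cd151 and Tspan4, 3.77 kb apart on chromosome 7 with Polr2l between them, were expressed in both libraries. Tm4sf1 and Tm4sf4 lie 123 kb apart on chromosome 3, and Tm4sf4 was not detected. Tspan18 and Cd82 on chromosome 2 lie 84.6 kb apart, and neither was called.

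Genes whose products work with tetraspanins were read from lists by known role, which together held 71 genes, of which 57 were detected, counting Rom1 and Prph2, tetraspanin genes that the naming rule leaves out. Across them 12 were called higher in WT_MEF and 8 in WT_BMDM, or 24.0% and 16.0% of the 50 genes at 5 TPM or more in WT_MEF or WT_BMDM, beside 14.3% and 8.77% of all such genes. The single lists are short, and their counts are given as descriptions to be read beside these shares. Among immunoglobulin superfamily partners of CD9 and CD81, 2 of 3 detected genes were called, both toward WT_MEF: Ptgfrn at 51.5 TPM in WT_MEF and 1.96 TPM in WT_BMDM, and Igsf3 at 8.05 TPM in WT_MEF and 0.0391 TPM in WT_BMDM. Igsf8 differed little, at 63.2 TPM in WT_MEF and 72.9 TPM in WT_BMDM. The list's median log2 ratio was 3.12.

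Integrin subunits that pair with CD151 and its relatives were divided by subunit. Of 6 detected genes, the laminin receptor genes Itga7, at 28.9 TPM in WT_MEF and 0.511 TPM in WT_BMDM, and Itga3, at 13.8 TPM in WT_MEF and 0.0419 TPM in WT_BMDM, were called higher in WT_MEF. Itga4, a leukocyte homing subunit, was called higher in WT_BMDM, at 2.85 TPM in WT_MEF and 16.1 TPM in WT_BMDM. Itga6, another laminin receptor subunit and a main partner of CD151, had the opposite sign to Itga7 and Itga3 and was not called, at 45.2 TPM in WT_MEF and 133 TPM in WT_BMDM. Itgb1, the shared beta subunit, was not called either, at 896 TPM in WT_MEF and 362 TPM in WT_BMDM. The median log2 ratio was 1.16.

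Of 10 detected genes in the list of ADAM10 and proteins it cuts, 4 were called higher in WT_MEF and 1 in WT_BMDM, with a median log2 ratio of 0.28, equal at 2 decimals to that of all detected genes. Prnp, the prion protein gene, stood at 354 TPM in WT_MEF and 27.6 TPM in WT_BMDM. Cdh2, encoding N-cadherin, stood at 85.0 TPM in WT_MEF and 0.103 TPM in WT_BMDM. Notch3 stood at 8.53 TPM in WT_MEF and 0.0119 TPM in WT_BMDM. The membrane-bound chemokine genes were split between the libraries. Cx3cl1 stood at 23.5 TPM in WT_MEF and 0.712 TPM in WT_BMDM, and Cxcl16 at 3.92 TPM in WT_MEF and 143 TPM in WT_BMDM. App, Cd44, Notch1 and Notch2 were detected in both libraries and not called.

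Among exosome formation genes, 14 of 16 detected genes were not called, or 87.5% beside 81.0% of all detected genes, and the median log2 ratio was 0.39. The 2 called genes were the syndecans Sdc1, at 185 TPM in WT_MEF and 5.46 TPM in WT_BMDM, and Sdc2, at 177 TPM in WT_MEF and 0.414 TPM in WT_BMDM. Sdcbp, encoding the syndecan adaptor syntenin that also binds CD63, stood at 249 TPM in WT_MEF and 850.1 TPM in WT_BMDM and was not called. Among the other uncalled genes, the syndecan gene Sdc3 stood at 122 TPM in WT_MEF and 423 TPM in WT_BMDM, and Rab27b at 4.64 TPM in WT_MEF and 0.0440 TPM in WT_BMDM, short of the 5 TPM minimum alone. In the list of late endosome and lysosome membrane genes, where CD63 resides, 3 of 9 detected genes were called, all toward WT_BMDM, with a median of -0.43. Cd68 stood at 9.47 TPM in WT_MEF and 3092 TPM in WT_BMDM, and Laptm5 at 1.57 TPM in WT_MEF and 1196 TPM in WT_BMDM. The cholesterol transporter gene Npc1 stood at 22.5 TPM in WT_MEF and 118 TPM in WT_BMDM. Cd68 is also among the macrophage markers.

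Of 5 detected immune partner genes, 3 were called higher in WT_BMDM and none in WT_MEF, with a median of -2.37. The class II gene H2-Aa stood at 1.06 TPM in WT_MEF and 21.3 TPM in WT_BMDM, and H2-Ab1 at 2.89 TPM in WT_MEF and 19.1 TPM in WT_BMDM. Clec7a, which encodes the CD37 partner dectin-1, stood at 0.341 TPM in WT_MEF and 6.88 TPM in WT_BMDM. Of the norrin receptor genes that work with TSPAN12, Fzd4 was called higher in WT_MEF, at 9.97 TPM in WT_MEF and 0.243 TPM in WT_BMDM, Lrp5, at 34.5 TPM in WT_MEF and 12.0 TPM in WT_BMDM, was not called, and the ligand gene Ndp was not detected. The median of the 2 detected genes was 2.29.

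**Figure D4:**
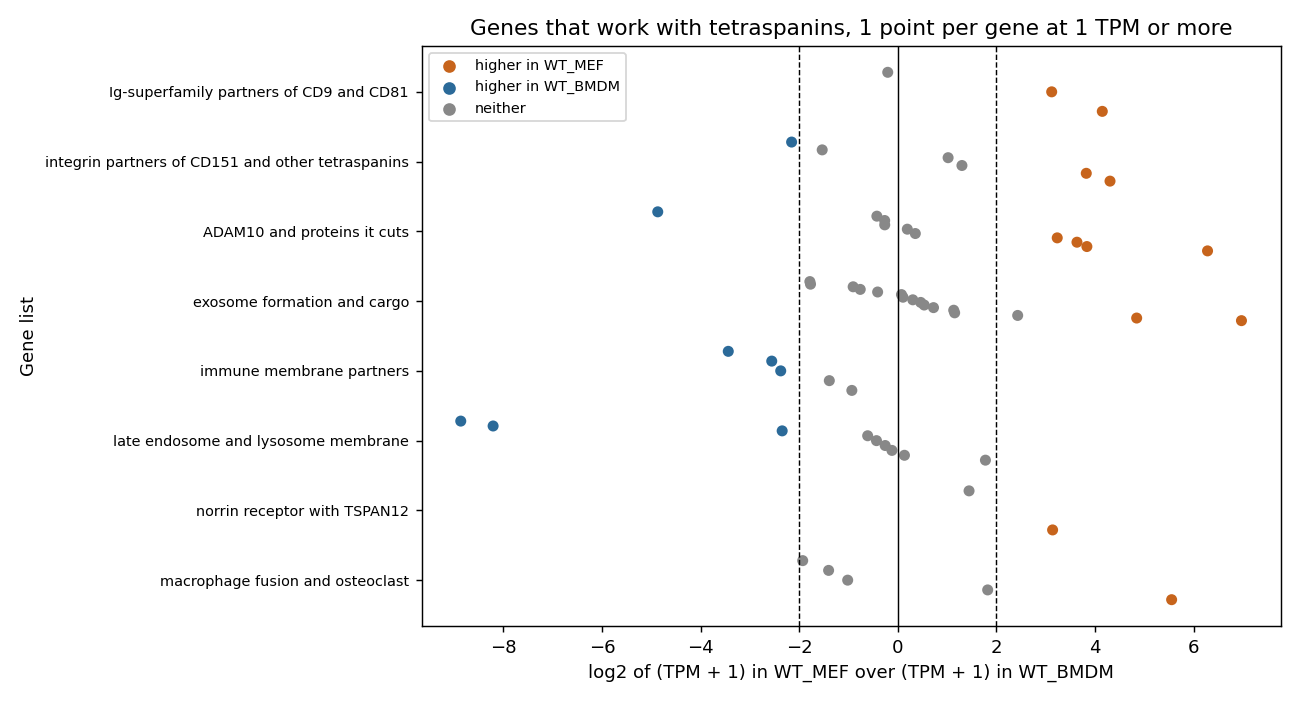
Log2 ratio of TPM + 1 in WT_MEF over WT_BMDM for each detected gene of 8 lists, with 1 point per gene and dashed lines at -2 and 2. Points are orange where called higher in WT_MEF, blue where called higher in WT_BMDM and grey otherwise; the immune and lysosome lists hold blue points and no orange one, and the grey exosome point past 2 lies below 5 TPM.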

How the data were processed

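Per the submitters' processing notes, reads were handled with kallisto 0.43.1 and the build GRCm38; the sources used here name neither the transcript set nor how gene rows were made. The kit was TruSeq stranded mRNA with paired reads of 76 bp, per the labels. The deposited values name no unit and were taken to be TPM computed by the authors, because no value is negative and each column's total is close to 1000000 (999545 in WT_MEF, 999609 in WT_BMDM).

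The 34456 rows were added by symbol to 34295 genes; no member stood on more than 1 row. Log2 ratios used a pseudocount of 1. Calls needed a 4-fold ratio and 5 TPM. No test was run, with 1 library per group. The calling rule was run on simulated data, with changes larger than the fold threshold planted in genes well above the minimum. That run does not bear on low genes, on changes near the threshold or on the spread between real libraries. Members and lists were chosen with earlier results of these data known. Named genes are all members and, in each partner list, up to 4 called genes per direction with the highest values, or where none was called up to 2; other list genes were named after their values were seen. Positions come from GENCODE M21, promoters from RefSeq (GRCm38.p6), and 31-base words shared with other genes, on either strand, from GENCODE M21 transcripts. Protein sequences were not analysed here, and the B cell marker list is not reported here as a whole. Alternatives covered pseudocount, minimum, threshold, scaling and rows. Python 3.11.15, pandas 2.3.3 and numpy 2.4.6 were used.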

Additional observations from a re-analysis of the deposited data

How the results depend on the processing

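Of the 11 called members, 10 kept their call under all 9 alternatives, and Tspan13 lost it with a pseudocount of 5. Several alternatives could not remove a member's call: the pseudocount of 0.1, the lower or absent minimum, the 2-fold threshold and the highest single row of a symbol. No fold threshold above 4 was tried. Tspan14, Tspan13 and Tspan5 differed 6.31-fold, 6.96-fold and 7.10-fold. Lowering the minimum to 1 TPM, or having none, added Tspan11, Tspan12 and Tspan15 toward WT_MEF, rescaling after removal of mitochondrial genes and of each library's 50 highest genes added Tspan12, and a 2-fold threshold added Cd81, Tspan3 and Tspan4. The members higher in WT_MEF thus numbered 6 to 9 and those higher in WT_BMDM 4 to 5. The median log2 ratio of the detected members, 1.07, was 1.18 with a pseudocount of 0.1, 0.60 with a pseudocount of 5, 0.89 with median-of-ratios scaling and 1.05 after the rescaling. The partner genes higher in WT_BMDM, 8 in the main result, numbered 5 with a pseudocount of 5, 11 with median-of-ratios scaling and 12 with the 2-fold threshold, and those higher in WT_MEF, 12, numbered 8 to 18 over all alternatives. Median-of-ratios scaling moved log2 ratios by about -0.25 and turned the sign of Tspan31 alone among detected members. No paired analysis was possible because each group has 1 library, and for the same reason no library could be left out. Depth is unknown, so values near 0 cannot be told from 0, and folds against them are uncertain.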

Other observations

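Genes of macrophage fusion and bone resorption, processes in which CD9 and CD81 take part, held no gene called higher in WT_BMDM. Of these genes 3 reached 5 TPM in either library, and 8.77% of all genes at that level were called toward WT_BMDM. Nothing is therefore read from the absence. Of 8 listed genes 5 were detected, and the single called gene was Ctsk, encoding the collagen-cutting protease cathepsin K, at 153 TPM in WT_MEF and 2.26 TPM in WT_BMDM. Acp5, the osteoclast phosphatase gene, stood at 15.6 TPM in WT_MEF and 3.70 TPM in WT_BMDM. Nfatc1, at 7.30 TPM in WT_MEF and 20.9 TPM in WT_BMDM, and Atp6v0d2, at 0.528 TPM in WT_MEF and 4.81 TPM in WT_BMDM, were the other way round and were not called. Dcstamp, needed for fusion, stood at 0.0982 TPM in WT_MEF and 1.22 TPM in WT_BMDM. Calcr was listed at 0 in both libraries. The median log2 ratio of the 5 detected genes was -1.01.

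The naming rule leaves out a pair of tetraspanins of the retina. Rom1 stood at 5.25 TPM in WT_MEF and 2.31 TPM in WT_BMDM and was not called, and Prph2 was listed at 0 in WT_MEF and at 0.0373 TPM in WT_BMDM.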
